A study of Orbilia oligospora with 2 samples.

Results

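The peaks described here are the 119 of 150 AoMbp1 peaks in the deposited list that lay on the scaffold NW_011645605.1 of Arthrobotrys (Orbilia) oligospora, a fungus that traps nematodes. They were chosen by the scaffold name alone, but each is in the list because AoMbp1 DNA exceeded input DNA there, so their enrichment over input is a description and carries no test. AoMbp1 carrying a Halo tag was incubated with genomic DNA from hyphae of the fungus and the bound fragments were sequenced (DNA affinity purification sequencing, DAP-seq). The groups were 1 AoMbp1 library and 1 input library, with no replicate of either. No library of the Halo tag by itself was analysed here. Of the mapped reads, 85.23% were duplicates in the AoMbp1 library, which had 77019180 mapped reads, against 10.58% of 63020247 in the input.

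Mbp1 proteins are sequence-specific DNA-binding factors. In budding yeast, Mbp1 pairs with Swi6 to form the MBF complex, which controls genes transcribed as cells pass from G1 into S phase. In DAP-seq the DNA carries no nucleosomes or other bound proteins, so the assay reads the affinity of 1 protein for purified DNA. A DNA molecule present in many copies in the preparation gives many reads in the input as well, which is why enrichment is stated relative to the input at the same place.

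The scaffold has 1 annotated gene, YMF40 (AOL_s00048g1), at NW_011645605.1:28915-29763 of the assembly AOL24927 1.0. It has 1 exon of 849 bp on the minus strand. The authors' deposited table matches it to orf785 of the fungus Allomyces macrogynus. Its terms include nuclease activity, DNA polymerase activity, intron homing, RNA processing and cellular respiration. Genes with intron-homing terms typically encode endonucleases that cut a homologous gene lacking the intron, and repair of the cut copies the intron into it. Fungal mitochondrial genomes often carry such genes. Whether this scaffold is mitochondrial DNA was not tested.

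No AoMbp1 peak overlapped YMF40. The gene sat inside a stretch of 1959 bp without a peak, the third longest of the 118 gaps between neighbouring peaks, and took up 43.3% of it. On its 3′ side, peak 23 (positions 28514 to 28901) ended so close that only 13 bases separated it from the gene. Its AoMbp1 pileup, the height of stacked reads or fragments at the summit, was 340 over an input background of 228, a fold enrichment of 1.49. On the 5′ side, 1097 bases lay between the gene and peak 24 (positions 30861 to 32005), the 1 peak of the scaffold that the authors placed in a promoter. Its summit was 1682 bp upstream of the gene start, and its pileup of 394 over a background of 215 gave 1.83-fold. Peak 22, with its summit 2738 bp past the 3′ end, reached 1.66-fold (pileup 361 over background 217). Peaks 22 and 23 lay on either side of the fourth longest gap, 1927 bp. The quartiles of fold enrichment over the 119 peaks were 1.45 and 1.67, so that peaks 22 and 23 lay between them and peak 24, the 16th most enriched, above. YMF40 therefore had peaks on both sides and none inside it.

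**Figure D1:**
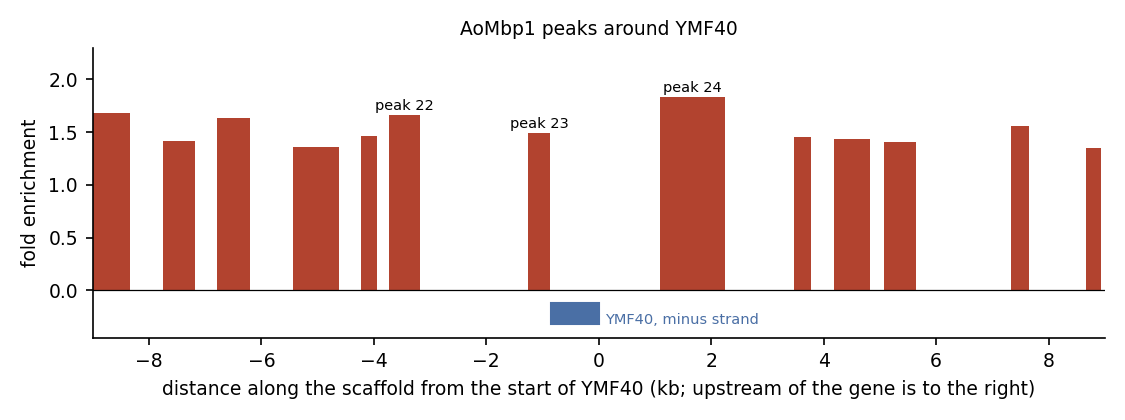
AoMbp1 peaks within 9 kb of YMF40. Each red bar spans 1 peak along the scaffold (horizontal axis, kb from the gene start) and its height is the fold enrichment over input; the blue box is the gene, which lies between peaks 23 and 24 and is overlapped by neither.

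At the 119 summits along the scaffold the AoMbp1 pileup stayed within a factor of 1.90, from 248 to 470 with a median of 322 (quartiles 302.5 and 353.5). Places with too little pileup to be called are not in the list, so this range does not describe the sequence between peaks. The input background at the same summits ran from 85.9 to 239.97 with a median of 212 (quartiles 196 and 220). This background was recovered from the deposited values as (pileup + 1) / fold enrichment - 1. The AoMbp1 pileup exceeded the background at every one of the 119 summits, by 56.2 to 293 with a median of 112. Fold enrichment was weak at most of them. It was under 1.5 at 51 peaks, between 1.5 and 2 at 59, and at least 2 at 9. Those 9 were 7.56% of the peaks (exact 95% interval 3.52 to 13.9), while 20.7% of all 150 peaks reached 2-fold, among them 22 of the 31 peaks elsewhere. The list holds peaks because of this same ratio, so nothing is read from that difference.

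Counting error alone was wide relative to these differences. At the median pileup of 322 the exact Poisson 95% interval was 288 to 359. Taking the background as fixed, the interval of the fold enrichment held the scaffold's median of 1.53 at 82 of the 119 peaks, lay above it at 27 and below it at 10. The order of the peaks in the middle of the ranking is therefore not resolved at this depth, and the spread between preparations is unknown. These intervals cover counting error only. They take the pileup as an unscaled count, although its scaling is not stated, and would be too narrow if duplicate reads were kept in the pileup, and how duplicates were handled is not given.

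**Figure D2:**
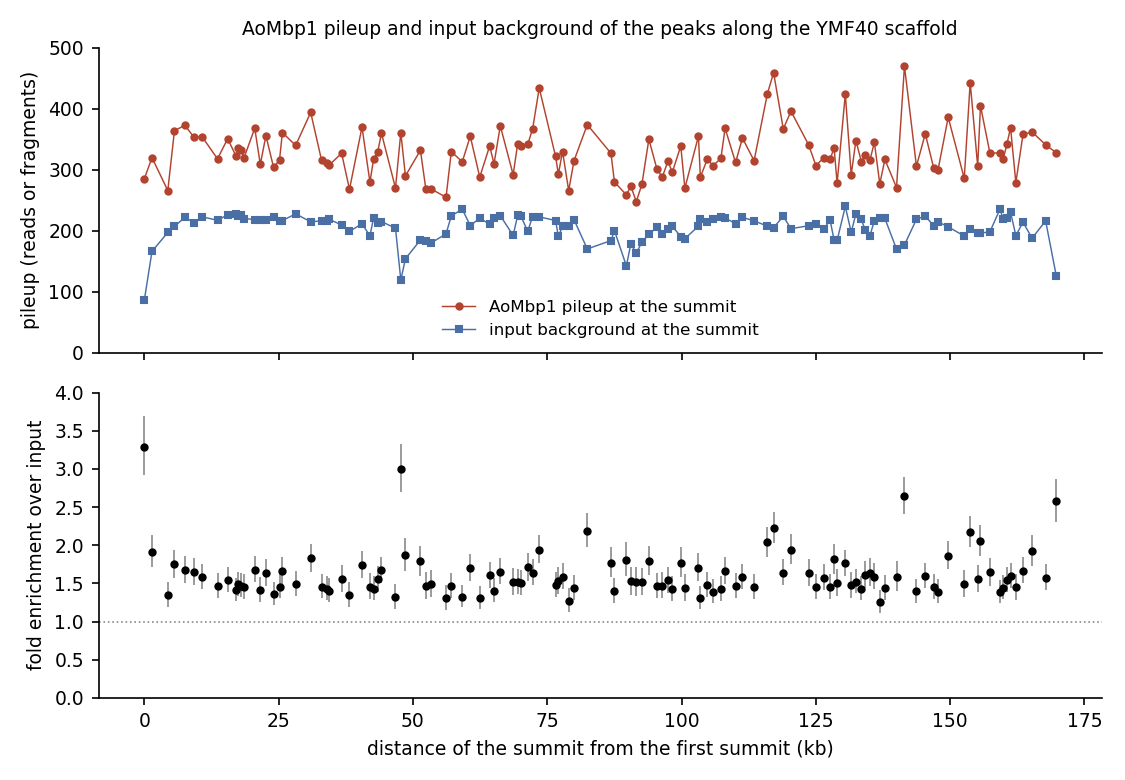
Values of the 119 peaks by distance of their summit from the first summit (kb). The upper panel shows the AoMbp1 pileup (red circles) above the input background (blue squares) at every summit; the lower panel shows fold enrichment with its 95% Poisson interval, highest at the first peak (3.29), at peak 36 (3.0), at peak 103 (2.65) and at the last peak (2.58).

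Over the 119 peaks, Spearman's rho with the summit position was 0.086 for fold enrichment, 0.051 for pileup, 0.016 for length and -0.12 for input background. Pearson's r was 0.041, 0.110, 0.022 and -0.015 in the same order. These coefficients are descriptions, since the peaks share both libraries, and all are weak over single peaks. With medians of 18 windows of 10 kb in place of single peaks, rho was 0.37 for fold enrichment, -0.084 for pileup, 0.28 for length and -0.24 for background. The last of these windows holds only peak 122, and without it rho was 0.25, -0.098, 0.19 and -0.098. The median fold enrichment ranged from 1.45 to 1.71 over the 17 windows that held at least 4 peaks. The median pileup in these windows ranged from 288 to 359.5 and the median background from 190 to 225. Neighbours resembled each other in input background (rho 0.38 over 118 pairs of adjacent peaks) but hardly in pileup (rho -0.11), fold enrichment (-0.11) or length (-0.043). The recovered background is the value the peak caller set the summit against. How much surrounding input it takes in is not given, and a value taken over surrounding sequence is shared by neighbours.

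The input background was under 150 at 4 peaks, a limit chosen after the values were seen. At the first peak, peak 4 (positions 60 to 1383), the pileup was 285 and the background 85.9, the lowest on the scaffold. Further in, the background was 166 at peak 5, 197 at peak 6 and 207 at peak 7, which are listed for this rise and were chosen after their values were seen. The last peak, peak 122 (positions 169058 to 170353), had a pileup of 328 over a background of 127, the third lowest. Its inner neighbour, peak 121, had a background of 216, also named after its value was seen. Both outermost peaks thus combined a middling or low AoMbp1 pileup with a low input.

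The second lowest background, 120, was at peak 36 (positions 47654 to 48663), where the pileup was 361. Next to it, peak 37 (positions 48849 to 49218) had a background of 154 and a pileup of 290. This dip also bordered the second longest gap, 2027 bp between peaks 37 and 38, and the longest gap, 2096 bp between peaks 40 and 41, followed it. In the window from 50001 to 60000 bp the peaks covered 36.2% of the sequence, the lowest share of the 17 windows. The fourth peak was peak 63 (positions 90135 to 90452), with a pileup of 259 over a background of 143. Among other peaks under the first quartile of 196 were peaks 38 to 40 (180 to 185), peak 60 (170), peaks 64 to 66 (164 to 181) and peaks 102 and 103 (170 and 177). Between 190 and 230 lay 95 of the 119 peaks. Peaks 39, 64 to 66 and 102 are named after their values were seen. The highest background, 239.97, was at peak 93 (positions 129978 to 131418), whose pileup of 424 was the sixth highest.

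Among the most enriched peaks were some with a low input and others with a high AoMbp1 pileup. Peaks 4, 36 and 122 reached 3.29-fold (95% counting interval 2.92 to 3.69), 3.0-fold (2.70 to 3.33) and 2.58-fold (2.31 to 2.87) on the 3 lowest backgrounds of the scaffold. Their pileups stood at 0.89, 1.12 and 1.02 times the scaffold's median. Set against the median background of 212 in place of their own, they would come to 1.34-, 1.70- and 1.55-fold. Peak 103 (positions 141215 to 143768) had the highest pileup, 470, over a background of 177, the tenth lowest, and was enriched 2.65-fold (2.41 to 2.90). Peak 84 (positions 117240 to 118012) had the second highest, 459, over a background of 205, which gave 2.23-fold (2.03 to 2.44). At the median background these peaks would come to 2.21- and 2.16-fold. Peaks 103 and 84 therefore stood high in AoMbp1 pileup itself, and peaks 4, 36 and 122 in its ratio to a low input.

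The other 5 of the 10 most enriched ranked below these, but their counting intervals, from 1.97 to 2.42 at peak 60 down to 1.76 to 2.13 at peak 54, overlapped that of peak 84. Peak 60 (positions 81623 to 85133) was 2.19-fold, with a pileup of 374 over a background of 170. Peak 110 (positions 154047 to 154335) was 2.18-fold, with the third highest pileup, 443, over 203. Peak 112 (positions 155913 to 157102) was 2.06-fold, with 405 over 196. Peaks 110 and 112 had 1 peak between them. Peak 83 (positions 114405 to 116888) was 2.04-fold, with 425 over 208, and was the neighbour of peak 84. Peak 54 (positions 73220 to 76242) was 1.94-fold, with the fourth highest pileup, 434, over a background of 223. With every peak set against the median background, 5 peaks in place of 9 would be at least 2-fold, and 6 of the 10 would keep a place among the highest 10.

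**Figure D3:**
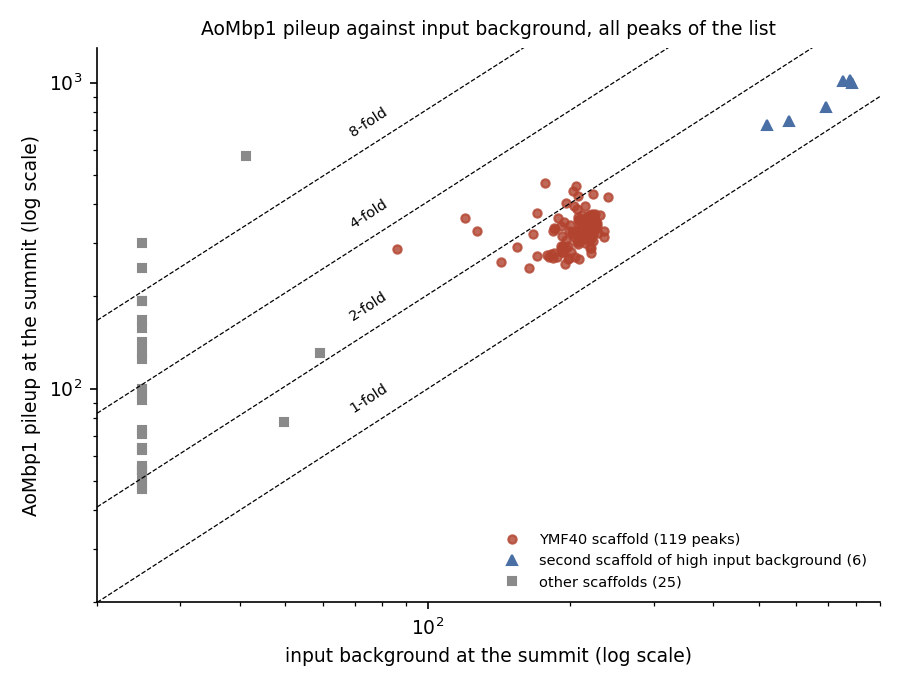
AoMbp1 pileup against input background at the summits of all 150 peaks, both on log scales, with dashed lines of equal fold enrichment. The peaks of the YMF40 scaffold (red circles) form a tight cluster mostly between the lines for 1-fold and 2-fold, with peaks 4, 36 and 122 to its left at backgrounds of 85.9 to 127. Most peaks of other scaffolds (grey squares) stand in a column at a shared background of 24.8, and whether that value is input at each summit was not tested.

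At the other end of the ranking, the weakest peaks had ordinary backgrounds and low pileups. Peak 100 was lowest at 1.25-fold (counting interval 1.11 to 1.41), with 277 over 221, and its deposited -log10 q was 1.36. Peak 58 was 1.27-fold with 266 over 209, and peak 45 was 1.30-fold with 288 over 221. Peaks 41 and 75 both came to 1.31-fold, with 255 over 195 and 288 over 220. The deposited -log10 p of the scaffold's peaks equalled the Poisson tail of pileup over background to within 0.00023. By that rule, the smallest pileup that reaches the -log10 p of peak 100, 3.93, is 267 at the median background, or 1.26-fold. At the lowest background of any peak in the list, 24.8, it is 45, or 1.78-fold. The first quartile and the median of the background in the 25 peaks of other scaffolds were this same value. Whether 24.8 is a minimum set by the peak caller in place of input at each summit was not tested. The same p thus corresponded to a lower fold enrichment on this scaffold than at that background.

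The peaks differed more in length than in height, with a coefficient of variation of 78.2% for length, 13.0% for AoMbp1 pileup and 11.4% for input background. The calling of peaks bounds the pileup of a listed peak from below, so these coefficients describe the listed peaks only. Length ran from 184 to 3511 bp with a median of 593 bp (quartiles 376 and 1196). Of the 119 peaks, 20 were at most 300 bp, 62 were over 300 and up to 1000 bp and 37 were longer. Peaks over 1000 bp held 60726 of the 101008 bp in peaks, or 60.1%, and the 8 over 2000 bp held 21.5%. The 5 longest were peak 60 (3511 bp), peak 54 (3023 bp), peak 108 (3009 bp), peak 30 (2885 bp) and peak 103 (2554 bp). Their fold enrichments were 2.19, 1.94, 1.86, 1.74 and 2.65, all above the median of 1.53.

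Longer peaks had a higher AoMbp1 pileup, while their input background was much like that of shorter ones. The median fold enrichment was 1.71 in peaks over 1000 bp, 1.49 in those over 300 and up to 1000 bp and 1.44 in those of at most 300 bp. The median pileup in the same order was 360, 315.5 and 309.5, and the median background 208, 213 and 217. Spearman's rho of length was 0.61 with fold enrichment, 0.59 with pileup and -0.077 with background. The summit is the highest point of a peak, so a longer peak offers more positions for it, and the coefficients are given as descriptions. Peak 110 went against this pattern, with the third highest pileup in 289 bp. Summits were spread through the peaks, from 0.82% to 95.3% of the length with a median of 53.0%; 21 of the 119 lay between 40% and 60%, and 7 in the outer 10% at either end.

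Peaks and gaps alternated over the full stretch from position 60 to position 170353. Gaps were short, with a median of 392 bp (quartiles 246 and 761) and a range of 180 to 2096 bp. Of the 118 gaps, 30 were under 250 bp and none under 180 bp. The 101008 bp in peaks were broken up by 69286 bp of gaps. Whether the calling of peaks sets the lower bound of the gaps was not tested, so the gaps describe the listed peaks only. The 17 gaps over 1000 bp held 36.5% of the gap length. Summits were a median of 1274.5 bp apart, between 366 and 4406 bp. Over the 17 windows of 10 kb with at least 4 peaks, the covered share ranged from 36.2% to 79.4%, and was highest in the window that starts at the first base. Values between peaks were not analysed here.

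**Figure D4:**
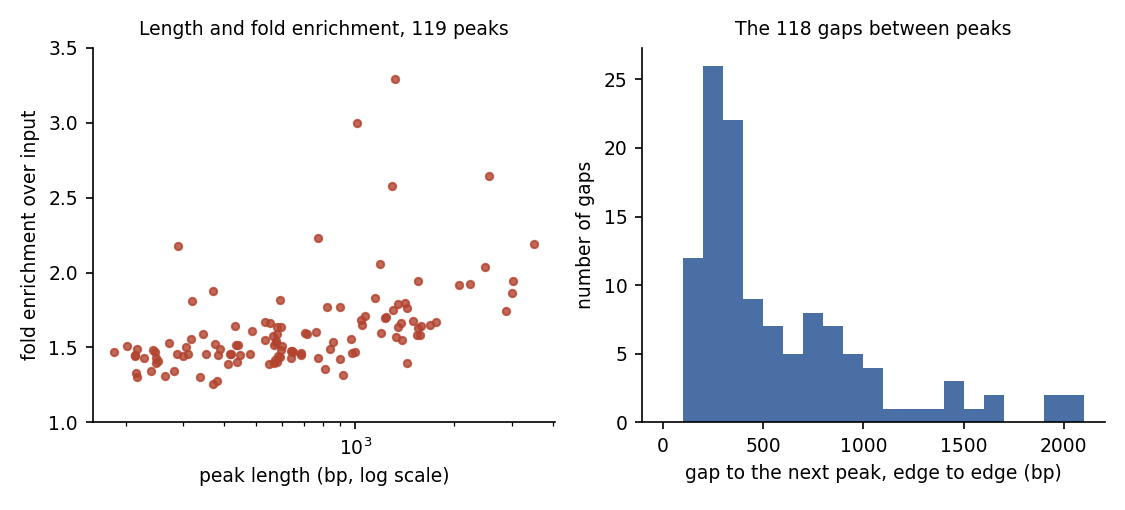
Left, fold enrichment over input against peak length (log scale) for the 119 peaks; peaks over 1000 bp have a median of 1.71-fold against 1.44-fold at or under 300 bp. Right, the number of gaps by edge-to-edge length; the gaps start at 180 bp, have a median of 392 bp and end at 2096 bp.

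The authors' motif search gave 2 motifs, each 15 bp long, one AT-rich and one GC-rich. On this scaffold the AT-rich motif had 46 sites in 33 peaks (27.7%, exact 95% interval 19.9 to 36.7) and the GC-rich motif 23 sites in 19 peaks (16.0%, 9.90 to 23.8). The authors' match q-value was under 0.05 at 24 of the 46 AT-rich and 14 of the 23 GC-rich sites, in 22 and 13 peaks. Both motifs occurred in 7 peaks, the AT-rich one alone in 26, the GC-rich one alone in 12, and neither in 74. Sites were mostly single. Of the peaks with an AT-rich site, 22 had 1 and 11 had more, at most 3. Of those with a GC-rich site, 15 had 1 and 4 had 2, which overlapped each other in peaks 63 and 92. Elsewhere, 16 of the 25 peaks of the other scaffolds had an AT-rich site (64.0%, 42.5 to 82.0). None of the 6 peaks of a second scaffold of high input background, NW_011645625.1, had one. The AT-rich motif averaged 0.387 sites a peak on the YMF40 scaffold, against 3.88 in those 25 peaks, where 1 peak had 15. The GC-rich motif averaged 0.193 sites a peak on the YMF40 scaffold, against 0.12 on the other scaffolds and 5 on the second scaffold, where 17 of the 30 sites lay in 1 peak. The motifs were found by the authors in these peaks, so the shares are descriptions.

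AT-rich sites of the scaffold were less purely AT than those of other scaffolds, and their distances from the summit were wider. Of their bases 86.4% were A or T, against 94.2% in the sites of the 25 other peaks, and 3 of the 46 sites had no G or C. Their median distance from the summit was 59 bp, against 27 bp, with 2 of 46 sites across the summit against 12 of 97. Peak length bounds these distances: the 25 other peaks were 187 to 339 bp long, with sites up to 124 bp from a summit, while sites on the YMF40 scaffold reached 228 bp. The median match score was 12.6, against 13.2. On the plus strand lay 32 of the 46 sites on the YMF40 scaffold, against 49 of 97. No test was made of these differences, and sites of 1 peak can overlap. The highest-scoring AT-rich site on the scaffold, 16.6, lay across the summit of peak 83, the ninth most enriched.

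GC-rich sites with high scores were near summits. The 7 sites within 50 bp of a summit had a median score of 19.6, and the 16 sites further out 11.2. The 5 highest, with scores of 17.9 to 22.7, were all within 59 bp. They lay in peaks 17, 61, 59, 102 and 12, which are named after their values were seen. The highest, 22.7, was 29 bp from the summit of peak 17, a peak of 1.68-fold. AT-rich sites differed less, with a median of 13.2 over 21 sites within 50 bp and 11.8 over 25 sites further out. The authors' search produced no site more than 228 bp from a summit, so nothing is known of the flanks of the longer peaks.

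**Figure D5:**
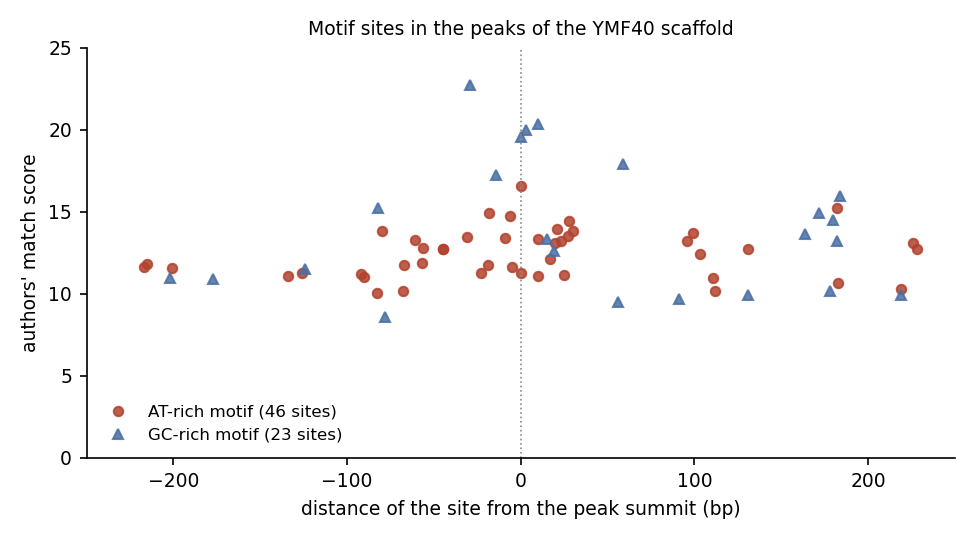
Match score of each motif site in the authors' table (vertical axis) against its distance from the peak summit (bp), for the 46 AT-rich sites (red circles) and 23 GC-rich sites (blue triangles) of the scaffold. The 5 GC-rich sites with scores of at least 17.9 lie within 59 bp of a summit; AT-rich scores stay at or below 16.6.

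Peaks with and without a motif site were close in median pileup and background but less so in length. Of the 9 peaks of at least 2-fold, 5 had an AT-rich site, none a GC-rich site and 4 neither. Peaks 4, 84, 103 and 110 were the 4. Over all 119 peaks, 27.7% had an AT-rich and 16.0% a GC-rich site, and 9 peaks are too few to read a difference from these counts. In peaks 60 and 122, 2 of the 5, every AT-rich site had a match q-value over 0.05. The median pileup was 320 in the 33 peaks with an AT-rich site, against 322.5 in the 86 without. It was 316 in the 19 peaks with a GC-rich site, against 322.5 in the 100 without. The median background was 208 with an AT-rich site, against 214 without. The median length was 761 bp with an AT-rich site, against 581.5 bp without, and 477 bp with a GC-rich site, against 618 bp without. All 19 peaks with a GC-rich site lay between 1.35- and 1.81-fold. By length, the AT-rich motif was present in 12 of 37 peaks over 1000 bp (32.4%, exact 95% interval 18.0 to 49.8). It was present in 18 of 62 peaks over 300 and up to 1000 bp (29.0%, 18.2 to 41.9). In peaks of at most 300 bp it was present in 3 of 20 (15.0%, 3.21 to 37.9). The GC-rich motif showed no such rise with length, with 6 of 37, 9 of 62 and 4 of 20 peaks in the same order. Peak length bounds the distance of a site from the summit, so short peaks offered fewer positions for a site. The intervals take the peaks as independent, which peaks of 1 library are not, and the differences were not tested.

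Along the scaffold there were 3 stretches of over 10 kb between summits in which no peak other than those at the ends had a site. Sites were reported at most 228 bp from a summit, so the sequence between these peaks is not known to lack them. Between the summits of peak 36 and peak 46, 16539 bp apart, none of the 9 peaks had a site of either motif. Between peak 70 and peak 79, 10648 bp apart, none of the 8 peaks had one. Peaks 46, 70 and 79 are named only as ends of stretches, after the sites were seen. At the start of the scaffold, none of the first 7 peaks had a site, and the first summit lay 13637 bp before that of peak 11, the first peak with one. The most sites in 1 peak were the 3 AT-rich and 2 GC-rich ones of peak 30 (positions 38956 to 41840; 1.74-fold), 2 of which were the same AT-rich stretch shifted by 1 bp. Peak 11, at 1.46-fold, also had 3 AT-rich sites. Peak 63, one of the 4 peaks of lowest input, had 2 GC-rich sites, which overlapped each other, and no AT-rich one.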

How the data were processed

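DAP-seq values of 1 AoMbp1 and 1 input library were taken from the authors' processed tables. Per the file headers, each peak has positions, a pileup (a signal at the summit), a fold enrichment (a ratio over input) and a -log10 p-value and q-value, all deposited by the authors. The deposited motif table gives a match score, p-value and q-value per site. Mapped and duplicate reads come from the authors' alignment table as counts. No source used here names the aligner, the peak caller or how duplicates were treated. Gene coordinates in the files equalled those of the RefSeq table for AOL24927 1.0.

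The input background, medians, gaps, 10 kb windows and correlations were computed with NumPy 2.4.6, SciPy 1.17.1 and pandas 2.3.3 in Python 3.11.15, and figures drawn with Matplotlib 3.10.9; the code was tested on simulated data. Intervals are 95%, exact binomial for shares and exact Poisson for pileups. To judge the alternatives, medians had order-statistic intervals and correlations had intervals from Fisher's z. All but the Poisson intervals take peaks, or bases for the covered share, as independent, which they are not, so they serve only as yardsticks. With 1 library a group no test was possible. Named peaks were taken from these: the 10 highest and 5 lowest in fold enrichment, the 5 longest, the 5 highest and 5 lowest in background, the 5 highest in pileup, those at the ends, at YMF40, at the 5 longest gaps and with most motif sites. Not all of these are named, and of the 5 highest in background only peak 93 is. Other peaks named are marked. The members, lists and rules were chosen with earlier results of these data known. Alternatives included stricter peak and motif thresholds, leaving out peaks, and other measures of position.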

Additional observations from a re-analysis of the deposited data

How the results depend on the processing

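No paired analysis was possible because each group has 1 library. The 14 summary values of the scaffold's peaks were recomputed under those of 12 alternatives that bear on each, 81 values in all; 2 alternatives were chosen after seeing the data. Keeping peaks of at least 1.5-fold left 68 peaks, with a median fold enrichment of 1.66, pileup of 349, background of 207, length of 1024 bp and gap of 1123 bp, a covered share of 44.7%, and 21 peaks with an AT-rich and 12 with a GC-rich site; fewer peaks were counted by construction. The covered share was 58.9% at q under 0.01, 57.3% without the first and last 10 kb, and 58.5% without the 2 most enriched peaks. Summit to summit, the median gap was 1274.5 bp. With medians of 10 kb windows, rho with position was 0.37 for fold enrichment and 0.28 for length. Without the last window, which holds 1 peak, these were 0.25 and 0.19. Keeping motif sites with q under 0.05 lowered the peaks with an AT-rich site from 33 to 22 and those with a GC-rich site from 19 to 13. The limit of 1.5 times still counted both as unchanged. The other values stayed within their intervals or within 1.5 times. The depth of each library limits single peaks to the counting intervals given, and replicate spread is unknown.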

Other observations

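The authors' motif table prints some letters of the matched sites in lower case, and what this marks is not stated there. On the YMF40 scaffold, 27 of the 32 AT-rich sites on the plus strand held lower-case letters, against none of the 14 on the minus strand. Among the GC-rich sites the counts were 9 of 18 on the plus strand and none of 5 on the minus strand. On the second scaffold of high input background and on the other scaffolds, too, no minus-strand site held a lower-case letter, so letter case cannot be used to compare sites of the 2 strands.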
